A study of Mus musculus with 6 samples.

Results

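The suppressors of cytokine signalling (SOCS) family was examined in RAW264.7, a mouse macrophage cell line, after exposure to drug-loaded nanoparticles. The 8 family genes Cish, Socs1, Socs2, Socs3, Socs4, Socs5, Socs6 and Socs7 were taken by symbol, and all 8 were among the 22105 rows with an Ensembl gene identifier. RNA sequencing covered 3 libraries of cells given nanoparticles named CM-PEG-PLGA@DOX/R848, dosed to carry 2 µg/mL of DOX equivalent, and 3 libraries of cells given phosphate buffered saline (PBS), both for 24 h. DOX is doxorubicin, which damages DNA by poisoning topoisomerase II, and R848, or resiquimod, activates Toll-like receptors of the endosome. PLGA and PEG are polymers of the particle, and CM is left undefined in the labels. No library received DOX, R848 or the carrier alone, so their parts cannot be told apart. The labels do not say whether the 3 libraries of a group came from separate cultures, and p-values therefore measure only the spread between these libraries, which may be technical.

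Cytokines such as interferons and interleukin 6 bind receptors that carry Janus kinases (JAKs), which phosphorylate STAT transcription factors. STATs in turn induce several SOCS genes, and the SOCS proteins shut the signal off again, which makes the family a negative feedback arm. Each SOCS protein has an SH2 domain, which binds phosphotyrosine, and a SOCS box, which recruits elongins B and C and cullin 5 to form a ubiquitin ligase. Only SOCS1 and SOCS3 also carry a kinase inhibitory region that blocks JAKs directly. In macrophages SOCS1 is known as a brake on interferon signalling and SOCS3 as a brake on signalling through the interleukin 6 receptor subunit gp130.

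Levels are in FPKM, fragments per kilobase of transcript scaled to the size of the library, so that levels of different genes can be set side by side. The low values implied 17200000 to 18400000 fragments per nanoparticle library and 18100000 to 22300000 per PBS library, as an inference, since the depth itself is not given. More genes were listed above 0 in nanoparticle libraries, 15723 to 15989, against 12678 to 12872 in PBS libraries. Of 10 macrophage markers 9 passed the expression filter described below. Of these 6 fell and 2 rose, beside 34.5% of all tested genes lower and 42.7% higher. The 10 summed to 1460 to 1550 FPKM in nanoparticle libraries and 3400 to 3540 FPKM in PBS libraries. That sum follows the most abundant markers and not all of them. Lyz2 averaged 395 FPKM in nanoparticle and 1500 FPKM in PBS libraries, whereas Adgre1 averaged 12.4 and 1.77 FPKM. The 14 markers of other cell types summed to 1.30 to 1.67 FPKM in nanoparticle libraries and 0.274 to 0.518 FPKM in PBS libraries, with Cd8a and Ncr1 listed at 0 in every library, and their part in the SOCS levels was not tested. Fewer RNA molecules per cell and fewer expressing cells cannot be told apart in such bulk samples.

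Sequence around the RefSeq starts of 3 of the genes is shown because short elements of the kinds searched for are known to carry cytokine signals to this family. Promoter windows from RefSeq (GRCm38.p6, 250 bases before to 50 after the start) were found for 4 of the 8 genes, Cish, Socs1, Socs3 and Socs4. They were searched on both strands for TTCNNNGAA, the core of STAT binding elements, for the same ends spaced by 1 base more, and for the core of the interferon-stimulated response element (GAAA, any 2 bases, GAAA). Positions are counted from 1 at the RefSeq start, with negative numbers before it, and capitals mark the matches. Cish, on chromosome 9 (chr9:107296654-107296683, plus strand, 30 bases), held a pair of TTCNNNGAA matches, TTCCTGGAA at position 1 and TTCTTGGAA at position 12, and is printed with 5 flanking bases since an annotated Cish transcript begins further upstream and has its 5′ untranslated region there. Socs1 (chr16:10785537-10785786, minus strand, 250 bases) held GAAAGAGAAA at position -83 and GAAACCGAAA at position -77, which share 4 bases. Socs3 (chr11:117969367-117969616, minus strand, 250 bases) held TTCTTAGAA at position -154, and this stretch lies inside the span that GENCODE M21 annotates for Socs3.
Cish: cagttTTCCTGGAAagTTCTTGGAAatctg
Socs1: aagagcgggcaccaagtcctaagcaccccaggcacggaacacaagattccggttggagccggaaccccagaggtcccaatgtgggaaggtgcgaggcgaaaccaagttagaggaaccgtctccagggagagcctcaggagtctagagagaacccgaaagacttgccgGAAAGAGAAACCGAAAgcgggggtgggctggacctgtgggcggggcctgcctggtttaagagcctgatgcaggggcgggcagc
Socs3: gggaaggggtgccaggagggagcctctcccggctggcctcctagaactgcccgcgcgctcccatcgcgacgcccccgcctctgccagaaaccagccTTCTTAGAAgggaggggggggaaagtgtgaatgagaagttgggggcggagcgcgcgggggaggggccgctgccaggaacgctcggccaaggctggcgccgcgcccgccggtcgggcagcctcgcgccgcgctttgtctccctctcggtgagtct
No match to any of these motifs was found in the Socs4 window. Among all 32851 RefSeq windows of this length, 8.30% held at least 1 TTCNNNGAA and 0.457% at least 2, as the Cish window did. The wider STAT core was found in 6.95% of them. The interferon-stimulated core was found in 3.44%, and at least 2 matches, as before Socs1, in 0.225%. These matches describe the letters and were not tested as sites.

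In nanoparticle libraries 7 of the 8 SOCS genes lay above the PBS range, as did 39.4% of the 18008 genes above 0 in any library, and the gap was wide for Cish and Socs1. One of the 7, Socs2, was listed at 0 in PBS libraries and at a level of 1.9 to 2.7 implied fragments in nanoparticle libraries. Cish, encoding the STAT5-induced inhibitor CIS, averaged 4.57 ± 0.341 FPKM in nanoparticle libraries and 0.109 ± 0.0345 FPKM in PBS libraries (SD, n = 3 each). Socs1 averaged 1.17 ± 0.209 FPKM in nanoparticle libraries and 0.118 ± 0.0506 FPKM in PBS libraries (SD, n = 3 each). Socs3, Socs4, Socs5 and Socs7 were higher by ratios of mean FPKM of 1.34 to 1.42, and Socs6 overlapped between the groups.

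Tests were made with limma on log2(FPKM + 1) for genes that averaged 1 FPKM or more across the 6 libraries, with Benjamini-Hochberg adjustment over all genes and a threshold of 0.05. Fold changes are on that scale, on which changes of low genes appear smaller than they are. Of the 8 genes 6 were tested, 5 rose and none fell. Among all 10229 genes tested, 42.7% rose and 34.5% fell, and 43.7% had nanoparticle libraries entirely above PBS libraries. After upper quartile scaling the balance over all genes turned, with 3735 higher and 4163 lower, while the same number of SOCS genes, 5, rose. Cish passed the filter only through the nanoparticle libraries, so its call was favoured by the filter. Among the 5 genes with a PBS mean above the filter, 4 rose, by log2 fold changes of 0.38 to 0.45. All of these lay between percentiles 67.6 and 71 of the fold changes of all tested genes, whereas Cish lay at percentile 98. Socs1 and Socs2 were under the filter and were not tested.

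**Figure D1:**
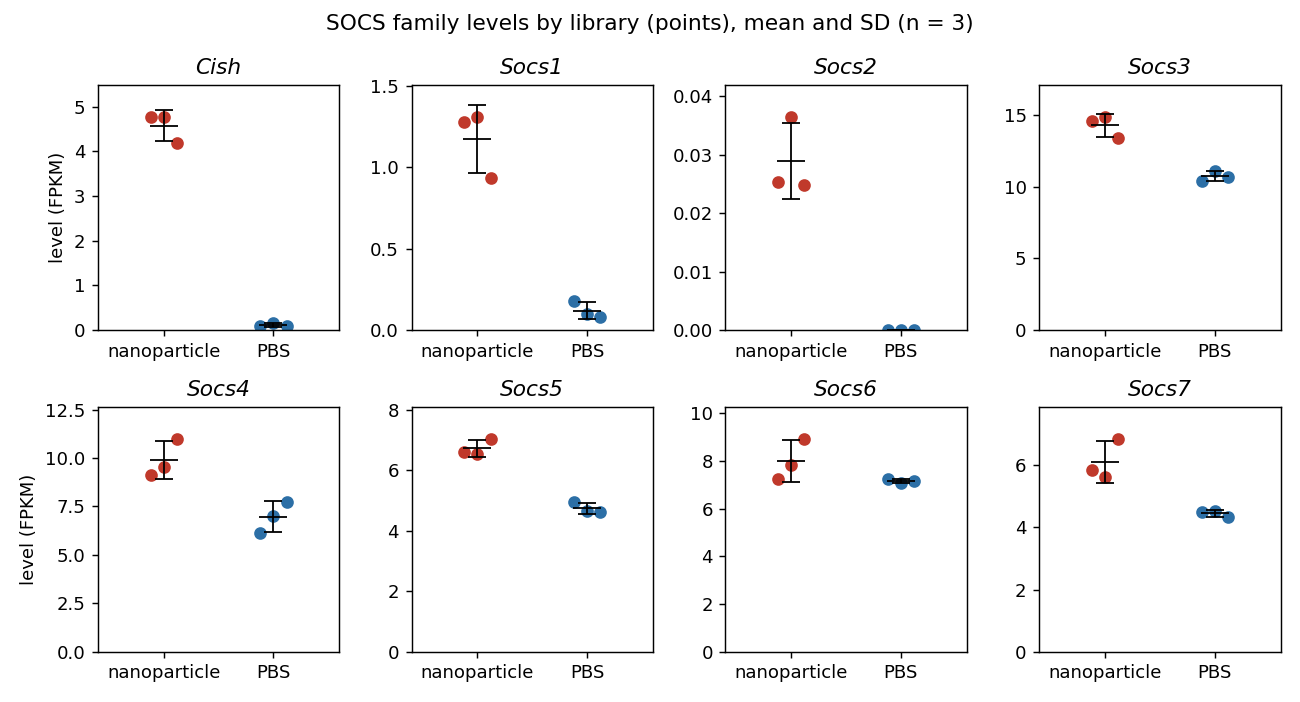
Level in FPKM (y axis, from 0, a separate scale for each gene) of the 8 SOCS genes in nanoparticle libraries (left) and PBS libraries (right), where points are libraries and bars the mean and SD (n = 3). The groups are far apart for Cish and Socs1, separated by a smaller gap for Socs3, Socs4, Socs5 and Socs7, and overlapping for Socs6.

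Cish (ENSMUSG00000032578, chromosome 9, 107296026 to 107302784, GRCm38) and Socs2 are both known as STAT5 target genes, and their proteins restrain growth hormone and related receptors. Cish had 4.77, 4.77 and 4.18 FPKM in nanoparticle replicates 1 to 3, against 0.0822, 0.148 and 0.0972 FPKM in PBS replicates 1 to 3. Every nanoparticle library was at least 28.2 times as high as every PBS library, and the ratio of means was 41.9. Its log2 fold change in limma was 2.33 ± 0.09 (SE, adjusted p = 8.1e-09), with a filter that it passed only through the nanoparticle libraries. Without a filter on low values, where 34.7% of 18008 genes rose, it was 2.33 ± 0.07 (SE, limma adjusted p = 1.6e-06). With the implied depth and the longest transcript, the PBS values correspond to 8.2 to 14 fragments, so the ratio rests on few fragments. The log2 fold change was 4.49 with a pseudocount of 0.1 and 0.53 with a pseudocount of 10. Of the 2770 genes with a PBS mean above 0 and under 0.2 FPKM, 26 (0.939%) reached the nanoparticle mean of Cish or more, and the median of these genes in nanoparticle libraries was 0.0774 FPKM. The antisense gene Gm17041 and the pseudogene Gm17040 overlap Cish on the opposite strand. The sources used here do not say whether counting used strand, and fragments of these genes cannot be told apart from those of Cish.

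The tested genes closest to Cish in level and pattern, by Euclidean distance over the 6 values of log2(FPKM + 1), were Trim30c (distance 0.246), Slc4a11 (0.266) and P3h2 (0.349). Trim30c had 4.32 to 4.68 FPKM in nanoparticle libraries and 0.0352 to 0.0669 FPKM in PBS libraries. Slc4a11 had 4.76 to 5.35 FPKM in nanoparticle libraries and 0.0606 to 0.116 FPKM in PBS libraries. P3h2 had 4.08 to 4.4 FPKM in nanoparticle libraries and was listed at 0 in 2 of the 3 PBS libraries.

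Socs2 (ENSMUSG00000020027, chromosome 10, 95385362 to 95417180) stayed close to silent. It had 0.0254, 0.0365 and 0.0249 FPKM in nanoparticle libraries and was listed at 0 in all 3 PBS libraries. The nanoparticle values correspond to only 1.9 to 2.7 implied fragments, and no fold is given. Of the 8358 genes listed at 0 in all PBS libraries, 13.4% were above 0 in all nanoparticle libraries, as Socs2 was.

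Socs1 (ENSMUSG00000038037, chromosome 16, 10782240 to 10785536) had 1.28, 1.31 and 0.933 FPKM in nanoparticle libraries, against 0.176, 0.0951 and 0.0823 FPKM in PBS libraries. The lowest nanoparticle library was 5.31 times the highest PBS library, and the ratio of means was 9.97. The PBS values correspond to 4.3 to 11 implied fragments and the nanoparticle values to 50 to 66. Without a filter on low values, 34.7% of 18008 genes rose in limma, and Socs1 was higher by 0.96 ± 0.08 on the log2 scale (SE, adjusted p = 8.1e-05). The same fit also called Socs2 higher (limma adjusted p = 0.024), whose nanoparticle values correspond to only 1.9 to 2.7 implied fragments, so it calls genes close to 0 FPKM. Of the 2770 genes as low as Socs1 in PBS (above 0 and under 0.2 FPKM), 113 (4.08%) reached its nanoparticle mean or more. Even so, Socs1 remained a minor transcript of the family, under every other member but Socs2 in nanoparticle libraries.

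Socs3 (ENSMUSG00000053113, chromosome 11, 117966079 to 117970047) was the most abundant member in both groups. It had 14.6, 14.9 and 13.4 FPKM in nanoparticle libraries, against 10.4, 11.1 and 10.7 FPKM in PBS libraries. The groups did not overlap, although the gap between the nearest libraries was small. Its log2 fold change in limma was 0.39 ± 0.07 (SE, adjusted p = 4.5e-04), and the ratio of means was 1.34. The other JAK-inhibiting member, Socs1, moved further from a far lower level. The log2 ratio of Socs3 to Socs1, each with 1 added, was 2.78, 2.78 and 2.90 in nanoparticle libraries and 3.27, 3.46 and 3.43 in PBS libraries. The ratio differed by -0.57 (exact two-sided permutation p = 0.1, the smallest that 3 against 3 libraries allow), was -2.14 with a pseudocount of 0.1 and turned to 0.09 with a pseudocount of 10, a constant far above the level of Socs1.

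**Figure D2:**
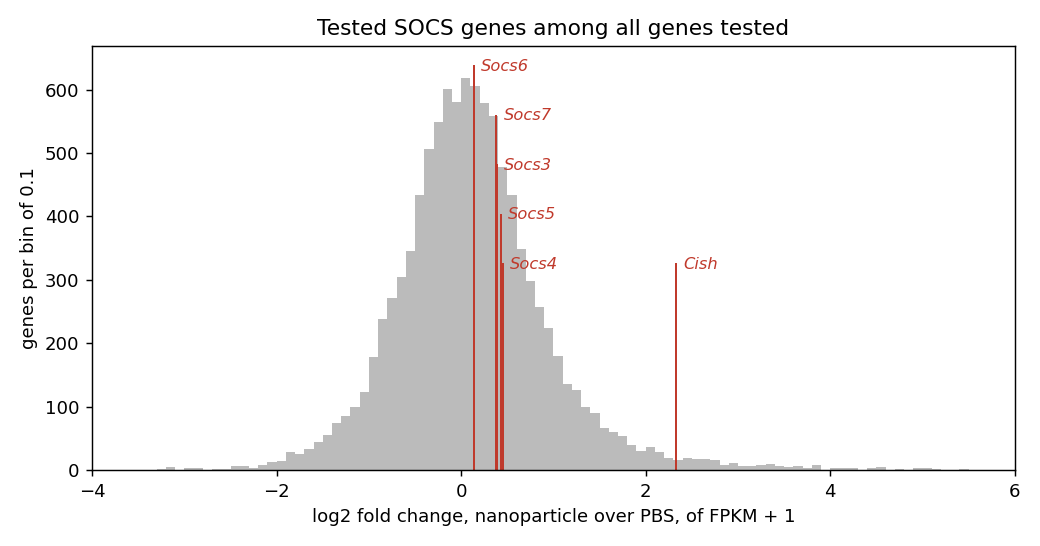
Number of genes (y axis) by log2 fold change of FPKM + 1, nanoparticle over PBS (x axis, bins of 0.1), for the 10229 genes tested, with red lines at the 6 tested SOCS genes (line height has no meaning). Cish, at 2.33, lies in the right tail, and it passed the filter only through the nanoparticle libraries. The other 5 genes, at 0.14 to 0.45, lie in the body of the distribution.

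Socs4 and Socs5 encode close relatives that are known to promote turnover of the epidermal growth factor receptor. Socs4 (ENSMUSG00000048379, chromosome 14, 47276931 to 47296102) had 9.12, 9.54 and 11 FPKM in nanoparticle libraries, against 6.14, 7 and 7.74 FPKM in PBS libraries. Replicate 3 was the highest library in each group, and the groups did not overlap. Its rise was 0.45 ± 0.10 on the log2 scale (SE, limma adjusted p = 0.0017). Socs5 (ENSMUSG00000037104, chromosome 17, 87107679 to 87137839) had 6.60, 6.53 and 7.04 FPKM in nanoparticle libraries, against 4.95, 4.64 and 4.61 FPKM in PBS libraries. It had the tightest nanoparticle group of the 7 members above 0 in both groups, with a coefficient of variation of 4.15%, and rose by 0.43 ± 0.07 (SE, limma adjusted p = 3.4e-04). The ratio of means was 1.42 for both genes.

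Socs6 and Socs7 encode adaptors that are known to bind insulin receptor substrates, and SOCS6 also the receptor KIT. Socs7 (ENSMUSG00000038485, chromosome 11, 97362551 to 97398542) had 5.85, 5.61 and 6.86 FPKM in nanoparticle libraries, against 4.49, 4.54 and 4.33 FPKM in PBS libraries. It rose by 0.38 ± 0.08 (SE, limma adjusted p = 0.0022). Socs6 (ENSMUSG00000056153, chromosome 18, 88665224 to 88927481) had 7.23, 7.83 and 8.94 FPKM in nanoparticle libraries, against 7.25, 7.08 and 7.18 FPKM in PBS libraries. Nanoparticle replicate 1 lay inside the PBS range, so the groups overlapped. Its log2 fold change of 0.14 ± 0.08 (SE) did not pass (limma adjusted p = 0.16), and it was 0.06 without nanoparticle replicate 3 (adjusted p = 0.47) and 0.20 without nanoparticle replicate 1 (adjusted p = 0.056). Processed pseudogenes overlap the long Socs6 locus on both strands and were not analysed here.

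Nanoparticle replicate 3 stood apart from the other nanoparticle libraries for several members, not all in one direction. On the log2(FPKM + 1) scale it lay 0.15 above the nanoparticle mean for each of Socs4, Socs6 and Socs7, whose longest transcripts have 6877, 6036 and 7015 bases, and 0.06 above it for Socs5 (4648 bases). It lay 0.10 below for Cish (4697 bases, the longest of 5 annotated transcripts), 0.09 below for Socs3 (2552 bases), and was the lowest library for Socs1. Which transcript of a gene was expressed is not known from these values. Over the 2848 tested genes with a longest transcript of at least 4500 bases, the median deviation of that library was 0.08, against -0.05 and -0.04 in nanoparticle replicates 1 and 2. Over the 2198 genes under 2000 bases it was -0.08. PBS replicate 3 deviated in the same directions (0.05 for long and -0.04 for short genes), and PBS replicate 2 in the reverse (-0.05 and 0.03). The median log2 fold change between the groups was 0.13 for the short genes, 0.10 for those between and -0.01 for the long genes. The part of this length pattern in the levels of single members was not tested.

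Socs3 led the family in both groups, but the order below it differed. In nanoparticle libraries Socs3 was followed by Socs4, Socs6, Socs5, Socs7, Cish, Socs1 and Socs2, and only Socs5 and Socs7 had overlapping ranges among neighbours. In PBS libraries the order was Socs3, Socs6, Socs4, Socs5, Socs7, Socs1, Cish and Socs2, with overlapping ranges for Socs6 and Socs4 and for Socs1 and Cish. The summed level of the family was 49.5, 50.5 and 52.4 FPKM in nanoparticle libraries and 33.5, 34.6 and 34.7 FPKM in PBS libraries. Cish made up 9.01% ± 0.908 of that sum in nanoparticle libraries and 0.318% ± 0.0970 in PBS libraries (SD, n = 3 each). Socs1 made up 2.32% ± 0.465 in nanoparticle libraries and 0.346% ± 0.156 in PBS libraries. Socs6 differed most in share among the other 6, at 15.7% ± 1.25 in nanoparticle libraries and 20.9% ± 0.634 in PBS libraries, while its own level overlapped. Socs3 held 28.2% ± 2.26 in nanoparticle libraries and 31.3% ± 0.644 in PBS libraries.

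**Figure D3:**
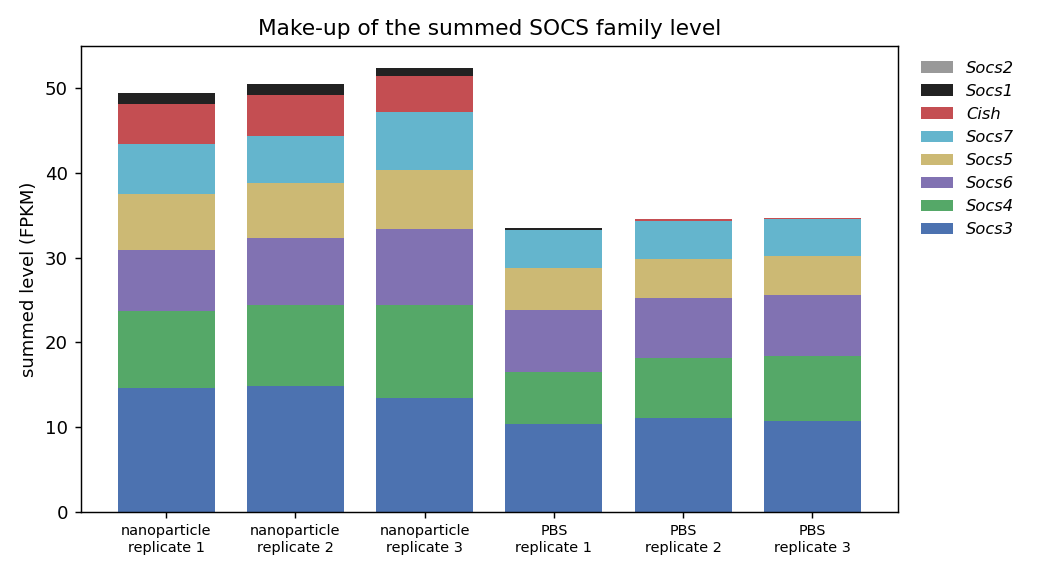
Stacked levels in FPKM (y axis, from 0) of the 8 SOCS genes in each nanoparticle library (left) and PBS library (right). The stacks reach 49.5 to 52.4 FPKM in nanoparticle libraries and 33.5 to 34.7 FPKM in PBS libraries, and Cish forms a visible band only in the nanoparticle libraries.

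The surrounding pathway is described by counts over lists written with earlier results of these data known, beside 42.7% of all tested genes higher and 34.5% lower, with a median log2 fold change of 0.08. Of 31 cytokine genes upstream of the family only 10 were tested, and 7 of these had a PBS mean under 1 FPKM and passed the filter only through the nanoparticle libraries, so that their count and median carry no weight. All 10 rose (median 2.33), among them Csf3 (4.93), the granulocyte colony-stimulating factor, and Il6 (4.90). Il6, with a PBS mean of 0.174 FPKM, is among those 7, whereas Csf3 averaged 6.24 FPKM in PBS libraries. Of 40 receptor genes 19 were tested, of which 10 rose and 2 fell (median 0.23). Among them Il4ra (1.29) and Il2rg (1.02), the common gamma chain, rose, and Ifnar2 (-0.31) and Il6ra (-0.38) fell. Il4ra had a PBS mean of 0.825 FPKM and passed the filter only through the nanoparticle libraries, so its call was favoured by the filter. Of 9 tested JAK and STAT genes 4 rose and 3 fell (median 0.06), shares close to those of all tested genes. Stat2 averaged 56.7 ± 3.17 FPKM in nanoparticle libraries and 6.76 ± 0.536 FPKM in PBS libraries, and Stat6 (-0.55) and Tyk2 (-0.45) fell. Stat5a and Stat5b, which encode the known inducers of Cish, were the 2 that did not pass, with log2 fold changes of 0.06 and 0.01 (limma adjusted p = 0.42 and 0.91). Both were singled out after their values were seen. Stat3, a known inducer of Socs3, rose by 1.40. These are transcript levels, STAT phosphorylation was not measured, and a link to the levels of Cish or Socs3 was not tested.

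Other attenuators of the pathway divided, 4 of 15 higher and 5 lower (median -0.05). Usp18, which blocks the interferon receptor, averaged 296 ± 12.5 FPKM in nanoparticle libraries and 30.7 ± 1.38 FPKM in PBS libraries, and Pias4 rose by 0.75. Ptpn6, the phosphatase SHP-1, averaged 75.6 ± 1.6 FPKM in nanoparticle libraries and 178 ± 3.45 FPKM in PBS libraries, and Dusp3 fell (-0.53). Of 9 genes listed as partners of SOCS box ligases 5 rose and 2 fell (median 0.40). Arih2 (1.06) and Eloc (0.90), which encodes elongin C, led the rise. Cul2 (-0.32) and Rbx1 (-0.22) fell, but Cul2 does not encode cullin 5. Cul5 and Elob, which encode cullin 5 and elongin B, rose by 0.40 and 0.53 and are named for that role. Rnf7 (0.04) and Nedd8 (0.15), also listed as partners, did not pass (limma adjusted p = 0.6 and 0.09). Of 14 other tested SOCS box genes 6 rose, among them Wsb2 (1.33) and Vhl (1.12), and 4 fell, among them Neurl2 (-0.56) and Rab40c (-0.37), again close to the shares of all tested genes. Of 10 tested genes whose proteins SOCS proteins are known to bind, 4 rose, among them Nck1 (0.67) and Vav1 (0.34), and 4 fell, among them Ptk2 (-0.70) and Tec (-0.45). Genes known to be induced by interferons rose in 17 of 18 cases (median 2.94), and Irf8 (-0.25) fell. Cxcl10 (4.92) and Irf7 (4.29) had the smallest p-values but not the largest changes. Of the 18, 4 had a PBS mean under 1 FPKM and passed the filter only through the nanoparticle libraries. Their calls were favoured by the filter, and the count and median include them. Genes known to be induced by STAT3 or STAT5 rose in 16 of 20 cases and fell in 3 (median 0.79), with Il1rn (4.12) and Pim2 (2.52) among the higher and Cebpb (-0.28) and Mcl1 (-0.22) among the lower.

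**Figure D4:**
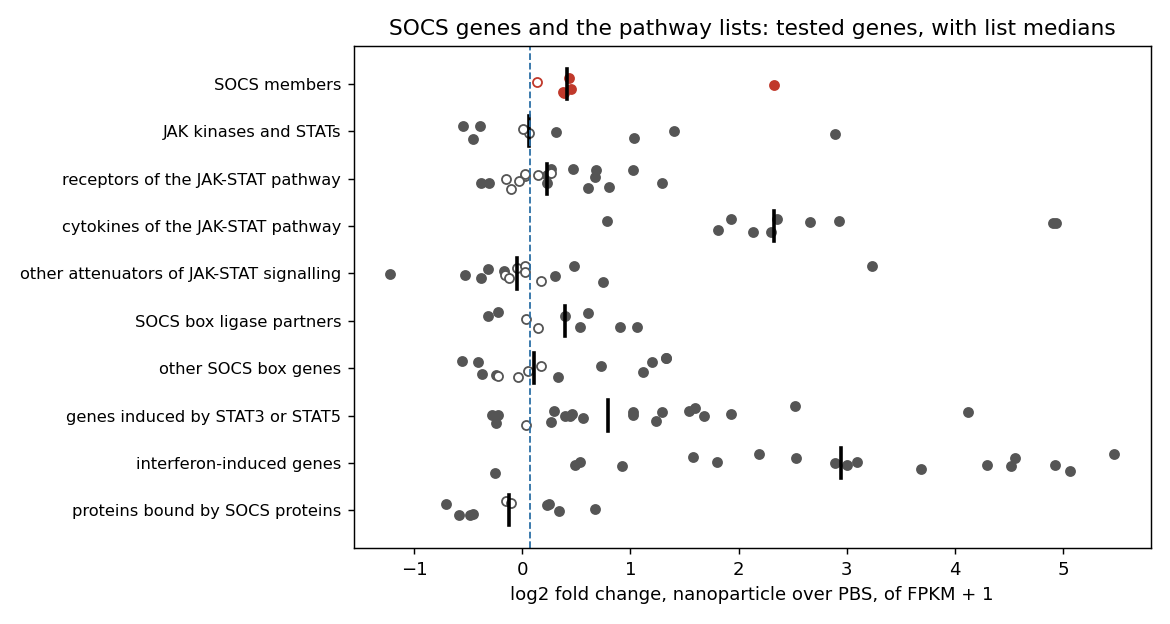
Log2 fold change of FPKM + 1, nanoparticle over PBS (x axis), of each tested gene in the SOCS family and 9 lists of the pathway (y axis), filled where it passed limma's threshold and open where it did not, with black bars at list medians and a dashed line at the median of all tested genes (0.08). Apart from Cish, the SOCS genes drawn lie to the left of most interferon-induced genes. Of those 18 genes, 4 had a PBS mean under 1 FPKM and passed the filter only through the nanoparticle libraries. Of the 10 cytokine genes drawn, 7 passed the filter only through the nanoparticle libraries, so the place of that list carries no weight.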

How the data were processed

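Libraries of enriched mRNA were made from TRIzol-extracted RNA by a BGI protocol, per the labels' protocols. The deposited table holds 1 column per library, matched by library name; the column for PBS replicate 1 carries a suffix of unstated meaning. Its values are taken as FPKM computed by the authors, an inference from the values, since the header names no unit. The submitters' processing notes name GRCm38 and mm10 as builds, with featureCounts and STAR as tools. The 509 rows without an Ensembl gene identifier (0.427% to 0.497% of the FPKM) were left out. Fragments could not be recovered: whole multiples of the lowest step, within 0.05, made up 22.6% to 32.5% of low values.

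Values were tested with limma 3.58.1 (R 4.3.3), with an intensity trend and treatment as the only term, on log2(FPKM + 1), and the procedure was tested on simulated data. Coordinates and lengths are from GENCODE M21. The SOCS genes and lists were chosen with earlier results of these data known. All 8 SOCS genes were named, and from other lists the 2 called genes with the smallest p in each direction. The 3 genes nearest each member with a called log2 fold change of at least 1 were also named. A few others, such as Cul5 and Lyz2, were named outside this rule. Same-numbered libraries deviated together (r = 0.13, 0.115 and 0.354 for numbers 1 to 3 across tested genes), although nanoparticle replicate 1 did so with PBS replicate 2 as well (r = 0.134). As each same-numbered pair was above 0.1, a fit with the replicate block was added as an alternative. The labels name no pairs, and these correlations do not establish any. Other alternatives changed the pseudocount, filter, scaling and variance model or left out a library. Proteins were not compared here, and a gene of the JAK and STAT list is not reported here. Python 3.11.15 with pandas 2.3.3, scipy 1.17.1 and matplotlib 3.10.9 was used.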

Additional observations from a re-analysis of the deposited data

How the results depend on the processing

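Calls and directions of the 6 tested SOCS genes held in every alternative that gave them a value, including each library left out, and Socs6 stayed short of the threshold throughout. With a filter at a mean of 5 FPKM, Cish was not tested, 4 members rose and Socs6 did not pass. Under that filter 3449 of all 8119 genes tested rose. The replicate block changed no call of a member (Cish 2.33, Socs6 0.14 with a limma adjusted p of 0.11). It called 8351 of the 10229 genes tested, 4609 of them higher, against 7896 calls without it. Upper quartile scaling moved the median of all genes by -0.11 on the log2 scale, and Socs3, Socs4, Socs5 and Socs7 then rose by 0.28 to 0.35. The value of Socs1 depended on the constant added, by construction. Its log2 fold change was 2.56 with a pseudocount of 0.1, 0.14 with 10 and 1.49 after rescaling every library to the same larger sum. Socs1 passed without a filter (0.96), as did Socs2 despite its few implied fragments. Socs2 averaged 0.0629 in nanoparticle libraries after that rescaling. The difference in the ratio of Socs3 to Socs1 turned to 0.09 with a pseudocount of 10. Depth limits the PBS values of Cish, Socs1 and Socs2 most.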
